A study of Mus musculus with 9 samples.

Results

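Open promoters without acetylated chromatin were 860 ATAC peaks of mature adipocytes of Flox mice that overlapped a promoter where no acetylation peak was listed. They made up 0.967% of the 88977 peaks of that library and 4.52% of its 19018 promoter peaks. A promoter was the stretch from 1 kb before to 1 kb after any transcription start site (TSS) of a protein-coding gene in GENCODE M21, and a gene was kept when its windows held no peak in any of 4 H3K27ac lists. Members were thus chosen by the presence of an ATAC peak in Flox and the absence of H3K27ac peaks. This left 777 genes, which were 3.54% of all 21938 genes and 5.23% of the 14858 genes with an open promoter. The remaining 14081 open genes carried H3K27ac, 5949 genes had neither kind of peak, and 1131 had H3K27ac alone.

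The ATAC library and the acetylation lists came from adipocytes that floated after collagenase digestion of inguinal white adipose tissue (iWAT) of male mice aged 8 to 10 weeks. Flox mice were homozygous for a floxed Ets1 allele and carried no Cre. EAKO mice carried that allele together with Adipoq-cre, which acts in adipocytes. EC+/+ mice were homozygous for an Ets1 cassette in the Hipp11 locus, held silent by a loxP-flanked stop behind a CAG promoter, and EA+/+ mice carried the same cassette with Adipoq-cre. H3K27ac was profiled by CUT&Tag in all 4 genotypes and ATAC in Flox and EAKO, while the labels write ChIP for CUT&Tag. Ets1 CUT&Tag came from iWAT adipocytes of wild type C57 mice, also 8 to 10 weeks old, at room temperature (RT) or after 7 days of cold stress (CS), and from beige adipocytes cultured for 6 days from the stromal vascular fraction of mice aged 3 to 4 weeks. Each of the 9 groups was 1 library, so no comparison between libraries could be tested and the spread between animals is unknown. Intervals in brackets are Wilson 95% intervals, which cover counting error only.

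H3K27ac is an acetyl group on lysine of histone H3 that is laid down by coactivators at promoters and enhancers in use. ATAC marks DNA that a transposase can reach, which happens where nucleosomes are displaced by bound proteins. A promoter may therefore be reachable and still lack this mark, as is known for promoters held by Polycomb complexes at genes of embryonic patterning and for sites bound by the repressor REST (NRSF), which recruits deacetylases to the RE1 sequence of neuronal genes. Ets1 is a transcription factor that recognizes GGAA inside a longer sequence.

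To show which sequences were found open, the summits of the ATAC peaks were read on the mouse genome. The RE1 core was searched as CAGCACC, 2 free bases and GGACAG on both strands, within 50 bases on each side of the summit. This motif was added after the names of the genes had been seen. The 6 strongest regions with the core that overlapped no H3K27ac peak are given here on the strand of the core. The core and the bases beside it, 21 in all, are in capitals. For Snap25 the capitals mark the core only as found by this search. The wider search described later scored another stretch of the Snap25 region, with 2 mismatches. Chrnb2 lay at chr3:89764450-89764478 (minus strand) in an untranslated exon of its gene. Vstm2l, at chr2:157913482-157913562 (minus), and Fbll1, at chr11:35799026-35799106 (plus), were outside any gene. Prmt8, at chr6:127767944-127768024 (minus), and Snap25, at chr2:136714258-136714338 (plus), were intronic. Golga7b, at chr19:42256099-42256127 (plus), was untranslated exon sequence. The build was mm10 (GRCm38).
Chrnb2: cggcTTCAGCACCACGGACAGCGCTccgt
Vstm2l: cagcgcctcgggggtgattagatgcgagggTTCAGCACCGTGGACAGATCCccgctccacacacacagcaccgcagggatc
Prmt8: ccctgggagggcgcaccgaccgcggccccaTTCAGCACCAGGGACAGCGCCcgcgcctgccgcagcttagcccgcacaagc
Snap25: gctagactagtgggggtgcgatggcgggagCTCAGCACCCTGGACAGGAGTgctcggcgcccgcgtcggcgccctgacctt
Fbll1: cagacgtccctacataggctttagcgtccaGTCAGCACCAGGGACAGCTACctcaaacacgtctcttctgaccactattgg
Golga7b: tcctATCAGCACCGCGGACAGCCCCcctg

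Developmental regulators form a further set. Their CG dinucleotides are shown because 28 of the 41 neural and body-plan transcription factors described later had a CpG-rich summit, beside 296 of all 777 genes. The strongest of these factors were Isl1 and En1, transcription factors of motor neurons and of the midbrain. The stretches shown lay just upstream of the genes at chr13:116309690-116309822 (minus strand) and chr1:120602255-120602417 (plus strand), and each CG is in capitals. There were 17 CG in the Isl1 stretch and 10 in that of En1.
Isl1: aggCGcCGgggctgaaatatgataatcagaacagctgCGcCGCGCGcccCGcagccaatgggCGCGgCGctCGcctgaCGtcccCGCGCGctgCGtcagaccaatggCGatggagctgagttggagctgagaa
En1: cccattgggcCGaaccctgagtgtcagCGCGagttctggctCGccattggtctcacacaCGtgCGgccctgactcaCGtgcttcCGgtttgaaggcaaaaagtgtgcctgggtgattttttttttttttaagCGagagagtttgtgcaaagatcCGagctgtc

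The sequence CCGGAAG, a strong form of the ETS site, was rare in these regions. The 2 that held it and overlapped the strongest Ets1 peaks of beige cells are shown with the site in capitals. Polrmt encodes the RNA polymerase of mitochondria, and its site lay upstream of the gene at chr10:79746608-79746634 (plus strand). Lage3, which belongs to the KEOPS complex, had it across its start at chrX:74353606-74353632 (plus strand) and was chosen after its values were seen.
Polrmt: tctgcgactgCCGGAAGcgctcttagg
Lage3: gccttatcctCCGGAAGctccgcccct

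The values that chose the members were looked at first, as a description. The H3K27ac lists differed in size, from 33713 peaks (EC+/+) to 86834 (Flox). Open promoters made up 67.7% of all genes in Flox. H3K27ac was on the promoters of 52.0% of all genes in EC+/+ mice, 50.4% in EA+/+ mice, 63.9% in Flox and 60.5% in EAKO, and 8832 open genes carried it in every list. A single peak kept 642 open genes out. The weakest such peaks were all in EA+/+, with a −log10 q of 1.33 at Pcdh8, 1.38 at Mmd2 and 1.39 at Sox18, whose ATAC peaks stood at 40.6, 27.7 and 12.7. On the other side of the threshold, the nearest H3K27ac peak lay 2 bp outside the windows of Cytip, 7 bp from those of Tnni3k and 8 bp from those of St6galnac2. Their ATAC peaks had a −log10 q of 36.1, 58.6 and 6.46.

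The mark was absent from the windows and not always from the surroundings. The nearest H3K27ac peak lay a median of 4207 bp from a window (quartiles 1151 and 12747 bp). It lay within 1 kb for 183 genes, within 10 kb for 553 and beyond 100 kb for 24. In 425 genes an H3K27ac peak was found elsewhere in the gene body. Of the 860 regions, 55 themselves overlapped an H3K27ac peak that stayed outside the windows, and 49 of those 55 were among the 132 regions whose summit was more than 1 kb from a TSS. In a separate count, 19 regions also touched a promoter of a neighbouring gene with H3K27ac. The label without any H3K27ac thus held for the windows by the rule, and for the whole region in all but 55 cases.

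Regions without H3K27ac were weaker, narrower and farther from the TSS than the other 18158 promoter peaks of the same library. Their −log10 q, the strength given by the peak caller, had a median of 12.6 (quartiles 6.18 and 25.7) against 51.2 (19.2 and 106), and their fold enrichment a median of 4.66 against 6.81. Their median width was 632.5 bp against 1092 bp, and the summit lay a median of 304.5 bp from the TSS against 134 bp. The medians of both sets and the full range of the regions without H3K27ac are seen in the plot of strength, width and distance. Strength is part of what the rule used, since a weak peak had to be called to enter, so these values describe the set.

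**Figure D1:**
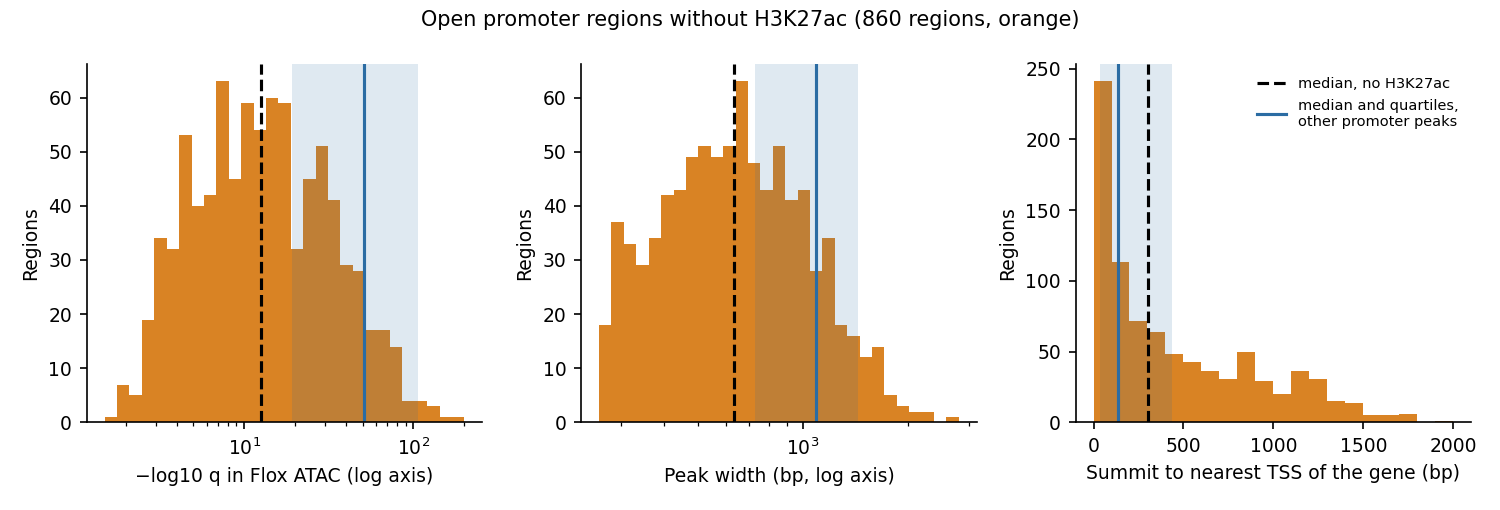
Strength (−log10 q, log axis), width (bp, log axis) and distance from summit to TSS (bp) of the 860 open promoter regions without H3K27ac (orange bars, number of regions per bin). Dashed lines give their medians of 12.6, 632.5 bp and 304.5 bp, and blue lines with shading give the median and quartiles of the other 18158 promoter peaks, at 51.2, 1092 bp and 134 bp for the medians.

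The distance to the TSS divided the regions. In 354 (41.2%) the summit was within 200 bp, compared with 59.4% of the other promoter peaks. Another 374 (43.5%) had it farther out but within 1 kb, and 132 (15.3%) beyond 1 kb, against 33.0% and 7.67%. The median −log10 q was 14.6 in the nearest class, 9.77 in the middle and 22.5 in the farthest, which was also the class that met H3K27ac outside the windows.

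This last class held most of the strongest regions. Of the 10 genes with the strongest region, 8 had its summit beyond 1 kb, and each of these 8 regions overlapped H3K27ac outside the window. They were the predicted gene Gm10643 (−log10 q 156), Hrc (127), which encodes a calcium-binding protein of the sarcoplasmic reticulum, and Sdhaf1 (125), an assembly factor of respiratory complex II. Oscar (122), a receptor of osteoclasts, Bcl2l15 (110) and Trhr2 (110), a receptor for thyrotropin-releasing hormone, followed, as did 1700017N19Rik (105) and Pth2 (101.5), which encodes a neuropeptide. Only the predicted gene Gm13277 (187) and Pdxp (110), the phosphatase of pyridoxal phosphate, had the summit close to the start, at 34 and 118 bp, with no H3K27ac overlap.

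Genes with more than 1 such peak numbered 86, and the most was 3 peaks. Among the genes with 3 were Cecr2, a chromatin remodelling factor (strongest −log10 q 33.9), Elavl2, a neuronal RNA-binding protein (65.4), Npas3 (13.7) and Srrm3 (70.6), both expressed in neurons, and Tent4b, a poly(A) polymerase (35.0). At Elavl2 the nearest H3K27ac peak was 154807 bp away. At Srrm3 it was 112 bp and at Npas3 88 bp from the windows, so a lack of the mark extended far beyond the promoter in Elavl2 and not in these.

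The named groups of genes were uneven. Of the 777 genes 133 stood on at least 1 of 32 lists, and 65 had only a predicted or clone-based name. Against 3.54% of all genes, the largest share over all genes of a list was that of transcription factors of the nervous system and body plan, of which 41 of 125 (32.8%, interval 25.2 to 41.4%) were open without H3K27ac, 54 were open with it and 30 were not open. Beside these stood 5 of 19 Wnt ligands (26.3%), 9 of 39 Hox cluster genes (23.1%), 12 of 59 receptors for glutamate, GABA, glycine or acetylcholine (20.3%), 10 of 57 clustered protocadherins (17.5%), 12 of 94 potassium channels (12.8%) and 8 of 67 replication-linked histones (11.9%). Among open genes only, the order changed to 10 of 19 protocadherins (52.6%), 1 of 2 beta-defensins (50.0%) and 41 of 95 of these factors (43.2%). Germ cell genes (6 of 17, 35.3%) and olfactory receptors (8 of 23, 34.8%) followed, beside 5.23% of all open genes. These shares carry no test, and the lists were drawn up with earlier results of these data known.

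**Figure D2:**
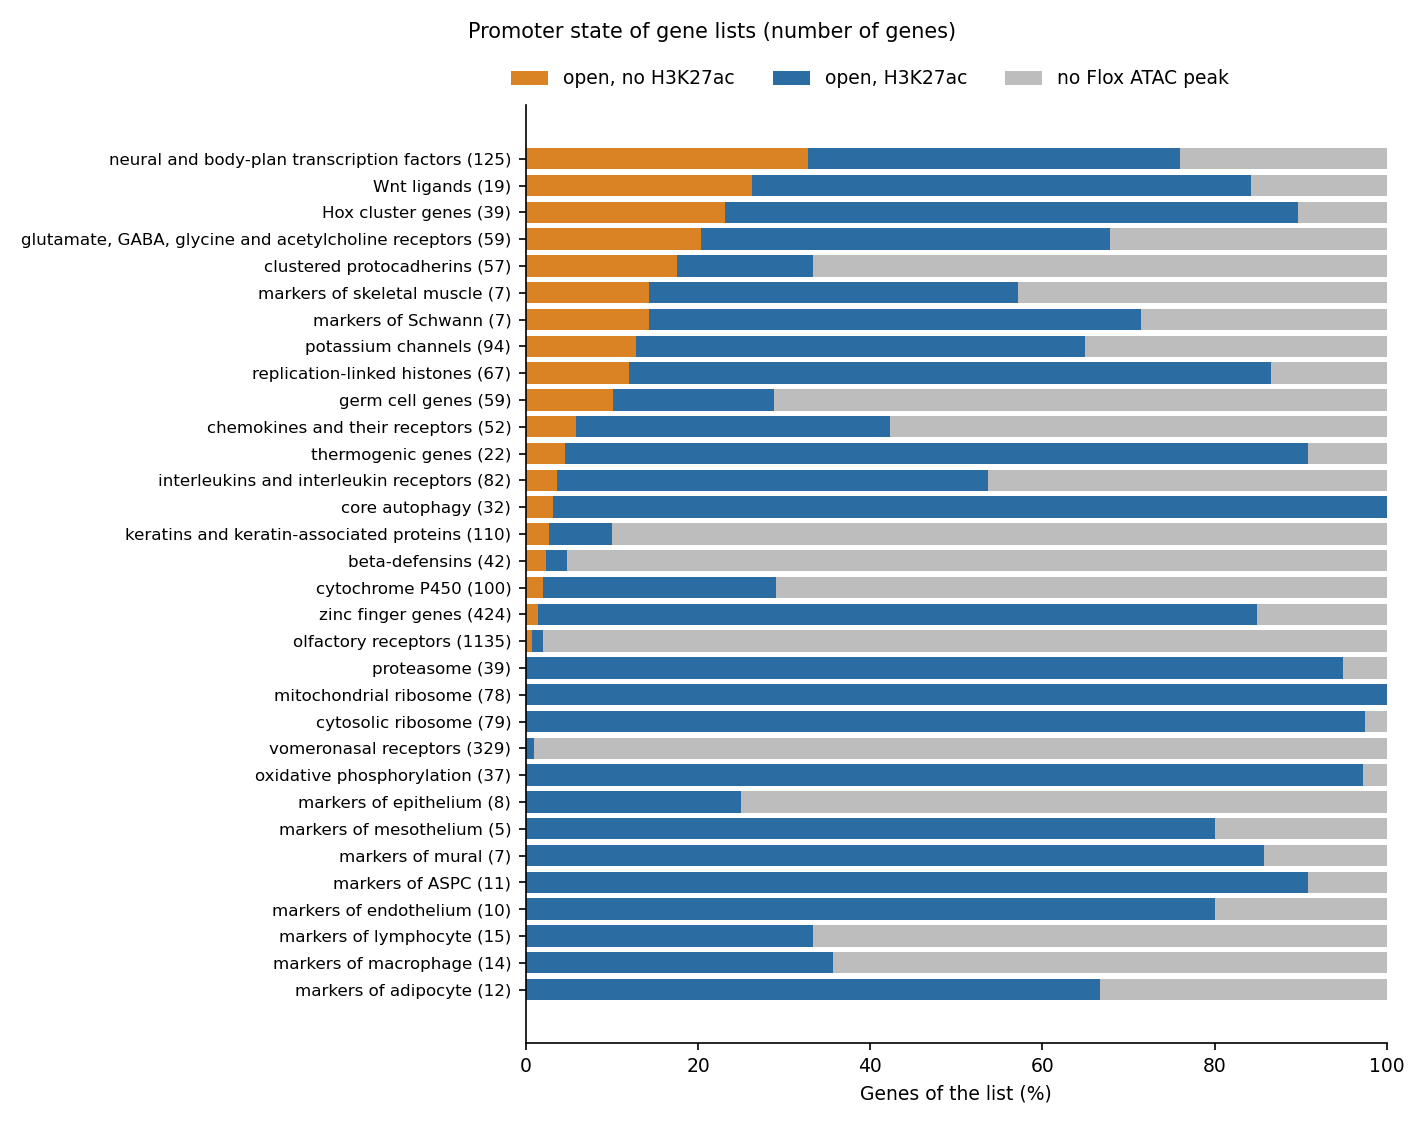
Share of the genes of each list (horizontal axis, percent; number of genes in brackets) whose promoter was open without H3K27ac (orange), open with H3K27ac (blue) or had no Flox ATAC peak (grey). Neural and body-plan transcription factors reached 32.8% orange, against 3.54% of all genes, and ribosomal, proteasome and oxidative phosphorylation genes had none.

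The transcription factors were open at modest strength, with a median −log10 q of 9.99 and a range from 2.13 to 56.3. Of the 41, 17 had the summit within 200 bp of a TSS and 28 had a CpG-rich summit, here a stretch of 300 bases with at least 50% GC and a ratio of observed to expected CpG of at least 0.6. Over all 777 genes these counts were 334 and 296, so the first was near the share of all members. Isl1 (56.3) and En1 (46.3) were the strongest. Lhx3 (36.2), which acts in the pituitary and in motor neurons, and Gbx2 (35.5), which patterns the hindbrain, came next. In EAKO, Isl1 stood at 25.8, En1 at 25.7, Lhx3 at 46.0 and Gbx2 at 17.8, so all 4 promoters were open in both ATAC libraries. The nearest H3K27ac peak was 20234 bp from Isl1 and 165 bp from Lhx3.

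Hox genes pattern the body axis, and Wnt ligands carry signals between cells. The Hox genes had a median −log10 q of 12.9 and ranged from 3.62 to 38.6, led by Hoxb13 (38.6), Hoxd10 (35.3), Hoxa5 (17.97) and Hoxd1 (16.3). A CpG-rich summit was found in 8 of the 9, beside 296 of all 777 genes. Hoxa5 and Hoxd1 had no peak in EAKO, where Hoxb13 was at 29.0 and Hoxd10 at 22.1. The Wnt ligands had a lower median of 4.59, where Wnt7a was at 11.3, Wnt3 at 8.70, Wnt9b at 4.59 and Wnt3a at 4.46. In EAKO Wnt7a was at 4.07 and Wnt3 at 3.90, while Wnt9b and Wnt3a had no peak. Most genes of these lists were open with H3K27ac, 26 Hox genes and 11 Wnt ligands.

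Receptors and channels of excitable cells gave some of the strongest promoters with the summit near the start. Chrnb2, a subunit of the nicotinic acetylcholine receptor, had a −log10 q of 93.2 in Flox and 57.1 in EAKO. Gria2, a subunit of the AMPA receptor, was at 35.0 and 37.4, Glra1, a glycine receptor, at 28.7 and 27.3, and Grm2, a metabotropic glutamate receptor, at 39.1 and 23.5. Of the 12 receptors 11 had an EAKO peak, beside 76.7% of all 777 genes. The potassium channels Kcns2 (56.1), Kcnh6 (42.5), Kcna7 (33.8) and Kcng3 (30.9) were open in EAKO as well, at 38.4, 19.4, 33.4 and 34.9.

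Germ cell genes and olfactory receptors were mostly closed, whereas 58 of 67 histone genes were open. Among 59 germ cell genes 42 were not open, 11 were open with H3K27ac and 6 without, led by Smc1b (30.8), a cohesin of meiosis, Stra8 (22.9), which acts at entry into meiosis, Tdrd5 (12.9) and Tex15 (9.02). Of 1135 olfactory receptors 1112 were not open and 8 were open without the mark, with Olfr156 (52.1), Olfr969 (26.7), Olfr1423 (22.8) and Olfr432 (15.5) in front. Of 57 clustered protocadherins 38 were not open, and the 10 open without H3K27ac were at most at 15.5, in Pcdhga10 and Pcdhga6, with Pcdhgb6 at 14.6 and Pcdhb16 at 9.77. The histones were Hist2h3c1 (74.3), Hist1h2af (72.8), Hist1h4m (29.7), Hist3h2ba (23.7) and 4 others, and the first pair overlapped H3K27ac outside the window. Histone genes and olfactory receptors have near-identical copies, so peaks at these genes are uncertain. The methods name uniquely mapped reads for the signal tracks, and whether the peaks rest on the same reads is not given in the sources used here.

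Immune and epithelial families added few members by count. They were 3.66% of interleukins and their receptors and 5.77% of chemokines and their receptors, beside 3.54% of all genes. Keratins gave 2.73%, beta-defensins 2.38% and cytochrome P450 2.00%. Among open genes the shares were 6.82%, 13.6%, 27.3%, 50.0% and 6.90% in the same order, beside 5.23%. Interleukins and their receptors gave Il13ra2 (30.8), Il31ra (14.6) and Il18rap (3.12) of 82 genes, and the 52 chemokines and chemokine receptors included Cxcl9 (18.7) and Ccr3 (13.8). Keratins gave Krt86 (46.1), Krt1 (12.9) and Krt25 (4.89) of 110, beta-defensins Defb30 (4.62) of 42, and cytochrome P450 Cyp2w1 (25.02) and Cyp26a1 (8.25) of 100. Zinc finger genes were mostly acetylated: 354 of 424 were open with H3K27ac and 6 without, led by Zfp959 (65.2), Zfp36l1 (51.9), Zfp141 (32.9) and Zkscan2 (28.1). Zfp36l1 encodes an RNA-binding protein of another kind and is on the list by its name.

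Lists of genes that every cell uses, and of thermogenic genes, held few or no members. None of the genes for the cytosolic ribosome (77 of 79 open), the mitochondrial ribosome (78 of 78), the proteasome (37 of 39) or oxidative phosphorylation (36 of 37) was open without H3K27ac. The upper limits of their intervals ran from 4.64% to 9.41%, so no single list was set apart from the 3.54% of all genes. Of 32 core autophagy genes, all open, 1 lacked the mark, Atg9b at 7.76. Of 22 thermogenic genes 20 were open and 1 lacked the mark, Elovl3, a fatty acid elongase of brown fat, at 17.6 in Flox and 14.7 in EAKO. The shares of 3.13% of core autophagy genes and 4.55% of thermogenic genes were near that of all genes.

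Markers of the cells that the floating fraction could hold were checked. Of 12 adipocyte markers 8 were open and all 8 had H3K27ac, while Adipoq, Cidec and Cfd had neither peak and Lep had H3K27ac alone. Open promoters with H3K27ac were also found for 10 of 11 markers of adipose stem and progenitor cells (ASPC), 8 of 10 of endothelium, 6 of 7 of mural cells, 4 of 5 of mesothelium, 5 of 14 of macrophages, 5 of 15 of lymphocytes and 2 of 8 of epithelium. Only Ncmap (3.72), of 7 Schwann cell markers with 5 open, and Myh1 (14.6), of 7 skeletal muscle markers with 4 open, lacked the mark. Promoters of markers of other cell types were thus open with H3K27ac in these libraries, and the part of such cells in the regions without H3K27ac was not tested. A region open in few cells and one weakly open in many cannot be told apart in such libraries.

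The sequence at the summits differed from that of the other promoter peaks. The RE1 core was present in 24 of 860 regions without H3K27ac (2.79%, interval 1.88 to 4.12%) and in 21 of 18158 other promoter peaks (0.116%, interval 0.0757 to 0.177%), with 0.237% over all promoter peaks. A wider search took the core preceded by TT and followed by CGCC and allowed 4 mismatches among its 19 fixed letters. It found 42 regions (4.88%, interval 3.63 to 6.54%) and 74 of the others (0.408%, interval 0.325 to 0.511%), with 0.61% over all. Both comparisons are descriptions, as the motif was chosen after the genes had been seen and regions are not replicates.

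The share with the wider RE1 match was compared within classes of peak strength, the highest of which has no upper bound. In peaks with a −log10 q between 20 and 50 it was 11.4% of the regions without H3K27ac and 0.634% of the others. It was 6.06% against 0.250% at 50 and over, 4.70% against 0.624% between 10 and 20, 1.45% against 0.512% between 5 and 10, and 0.658% against 0.225% under 5. The intervals were separate from 10 upward and overlapped below it. Regions with RE1 had a median −log10 q of 25.9.

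The motif lay beside the summit. Within 500 bp of the summit, 57 regions without H3K27ac had a match, the best match being centred within 50 bp in 42 of them (73.7%) and at a median of 30 bp. Of the other promoter peaks 281 had a match, 87 of them within 50 bp (31.0%), with a median of 185 bp. None of the 57 had the centre of the match closer than 20 bp to the summit, and 42 had it between 20 and 50 bp. Among the others 15 were closer than 20 bp and 72 between 20 and 50 bp. The summits without H3K27ac thus sat on either side of the match, as the plot of the distances shows.

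**Figure D3:**
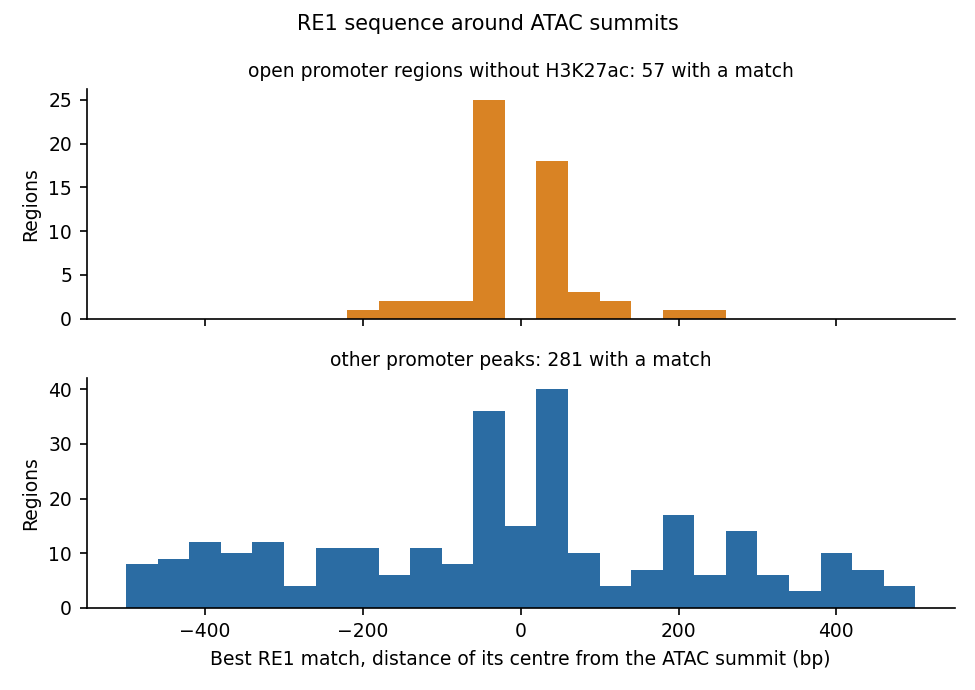
Distance in bp from the ATAC summit to the centre of the best RE1 match (up to 4 mismatches), for 57 open promoter regions without H3K27ac (orange) and 281 other promoter peaks (blue) that had a match within 500 bp; bars give the number of regions per bin of 40 bp. In the regions without H3K27ac 42 matches were between 20 and 50 bp from the summit and none was closer, while those of the other peaks also lay in every other bin of the range.

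The wider search and the count of match centres each gave 42 regions, by different criteria. The search needed the whole match within 50 bases on each side of the summit, so the sets need not be the same. The 42 regions of the wider search, with RE1 near the summit, included promoters of genes known from neurons and secretory cells. By the rule their windows held no H3K27ac. Of the 74 other promoter peaks with RE1 50 overlapped an H3K27ac peak, beside 89.4% of all other promoter peaks. In EAKO 40 of the 42 overlapped an ATAC peak, beside 73.6% of all regions without H3K27ac and 91.5% of the other promoter peaks. The median −log10 q of the 42 was 25.9. In the class from 20 to 50, 96.0% of the genes without H3K27ac had an EAKO promoter peak. Chrnb2 (93.2 in Flox, 57.1 in EAKO), Vstm2l (84.4 and 61.9), Prmt8 (60.3 and 12.8), Snap25 (48.4 and 38.0), Fbll1 (47.8 and 53.7) and Golga7b (47.3 and 31.0) are the ones shown above. Snap25 is the SNARE protein of synaptic vesicle fusion, and Prmt8 is an arginine methyltransferase of the brain. Chga, the chromogranin of secretory granules (33.8), Syt6 (33.2) and Syt4 (9.02), synaptotagmins, Drd2, a dopamine receptor (18.1), Calb1, a calcium-binding protein of neurons (22.8), and Cartpt, a neuropeptide precursor (30.8), were further members. Lhx3, Gria2 and Glra1 of the lists above carried RE1 too, and in Lhx3, Prmt8 and Unc79 all 19 fixed letters matched. Except for Chrnb2, Lhx3, Gria2 and Glra1, these genes were chosen after their values were seen.

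Other sequence features moved in both directions. The core consensus of CTCF, the insulator protein, was present in 35 regions (4.07%, interval 2.94 to 5.61%) against 1.52% of the other promoter peaks and 1.64% of all. It was most frequent between a −log10 q of 20 and 50, at 8.96% against 3.00%. The CTCF share was 1.32% against 1.01% under 5, 1.45% against 1.22% from 5 to 10 and 3.85% against 1.87% from 10 to 20. At 50 and over it was 4.55% against 0.847%. Intervals overlapped below 20 and were separate from 20 upward. CCGGAAG was found in 10 regions (1.16%, interval 0.633 to 2.13%) against 5.84% and 5.63%. By strength it was 1.28% against 1.38% from 10 to 20, 1.99% against 2.63% from 20 to 50 and 3.03% (2 of 66) against 9.67% at 50 and over, and the intervals overlapped in every class. A run of 10 CA units was rare in both, at 0.349% and 0.275%. CpG-rich summits were found in 325 regions (37.8%, interval 34.6 to 41.1%) against 57.0%, with a median GC content of 55.7% against 60.7%. Within classes of strength the direction of the CpG-rich share changed. It was higher than in the other peaks under a −log10 q of 10, near level from 10 to 20 and lower from 20 upward. The share was 30.3% against 21.5% under a −log10 q of 5, 41.1% against 27.6% from 5 to 10, 36.8% against 37.2% from 10 to 20, 37.3% against 45.6% from 20 to 50 and 50.0% against 75.5% at 50 and over. Summits within 200 bp of the TSS were CpG-rich in 49.7%, those farther out but within 1 kb in 32.1% and those beyond in 22.0%.

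ATAC in EAKO asked whether these promoters were also open when Ets1 was deleted in adipocytes. A promoter peak was present for 596 of the 777 genes (76.7%, interval 73.6 to 79.5%), beside 66.0% of all genes and 97.3% of the open genes with H3K27ac. The share rose with the strength of the Flox peak up to a −log10 q of 50. It was 35.7% of genes under a −log10 q of 5, 62.6% from 5 to 10, 86.9% from 10 to 20, 96.0% from 20 to 50 and 92.4% at 50 and over. The open genes with H3K27ac gave 49.7%, 67.9%, 87.7%, 98.5% and 99.9% in the same classes. Intervals of the sets overlapped in the 3 lower classes. The EAKO list was smaller, with 82839 peaks.

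Some strong promoters lacked an EAKO peak in the window. Of the 181 genes without one, the strongest in Flox were Hrc (127), Hist2h3c1 (74.3), Sh2d4b (68.5), Lmntd1 (66.9) and P2ry10b (52.7). All 5 had their Flox summit between 1323 and 1907 bp from a TSS, and all 5 regions overlapped H3K27ac outside the window. Each of these regions did overlap an EAKO peak that stayed outside the window, at a −log10 q of 80.5 for Hrc, 22.4 for Hist2h3c1, 30.4 for Sh2d4b, 30.7 for Lmntd1 and 31.5 for P2ry10b. The same was true of 19 of the 191 regions of the 181 genes, and over all 860 regions 633 (73.6%, interval 70.6 to 76.4%) overlapped an EAKO peak, against 91.5% of the other promoter peaks. In EAKO the member genes with a peak had a median −log10 q of 12.4, and the highest was Gm13277 at 162.

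Ets1 was rarely found at these promoters. At RT 2 of the 777 genes had a promoter peak (0.257%, interval 0.0706 to 0.934%), beside 4.06% of all genes and 6.11% of the open genes with H3K27ac. In CS it was 26 (3.35%, interval 2.29 to 4.86%), beside 32.7% and 49.8%, and in beige cells 54 (6.95%, interval 5.37 to 8.96%), beside 46.4% and 71.5%. Genes with neither ATAC nor H3K27ac gave 0.185%, 0.807% and 0.403%. Of the 1131 genes with H3K27ac and no ATAC peak 17 had one at RT, 89 in CS (7.87%) and 41 in beige cells (3.63%). In CS and beige cells the shares of the open promoters without H3K27ac thus stood between those of genes with neither peak and those of genes with both. At RT the interval included the value of genes with neither.

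The shares were also compared within classes of strength of the Flox ATAC peak, with no test. The class at 50 and over has no upper bound, so strength was not equal in it. Regions without H3K27ac ended at a −log10 q of 187 and the other promoter peaks at 14289. In CS and beige cells the intervals of both sets overlapped below a −log10 q of 10 and were separate in each class from 10 upward. At RT they overlapped in each class below 50, and at 50 and over 0 of 66 genes without H3K27ac had a peak (interval 0 to 5.50%) against 7.86% (7.34 to 8.40%). In CS the share without H3K27ac went from 1.79% under a −log10 q of 5 to 4.55% at 50 and over, and the share with H3K27ac from 6.06% to 62.0%. In beige cells it went from 1.79% to 10.6%, against 4.85% to 87.0%. At a −log10 q between 5 and 10 beige cells gave 5.03% and 6.65%. Shares with H3K27ac rose steeply with strength, while those without it stayed at or below 11.1%.

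**Figure D4:**
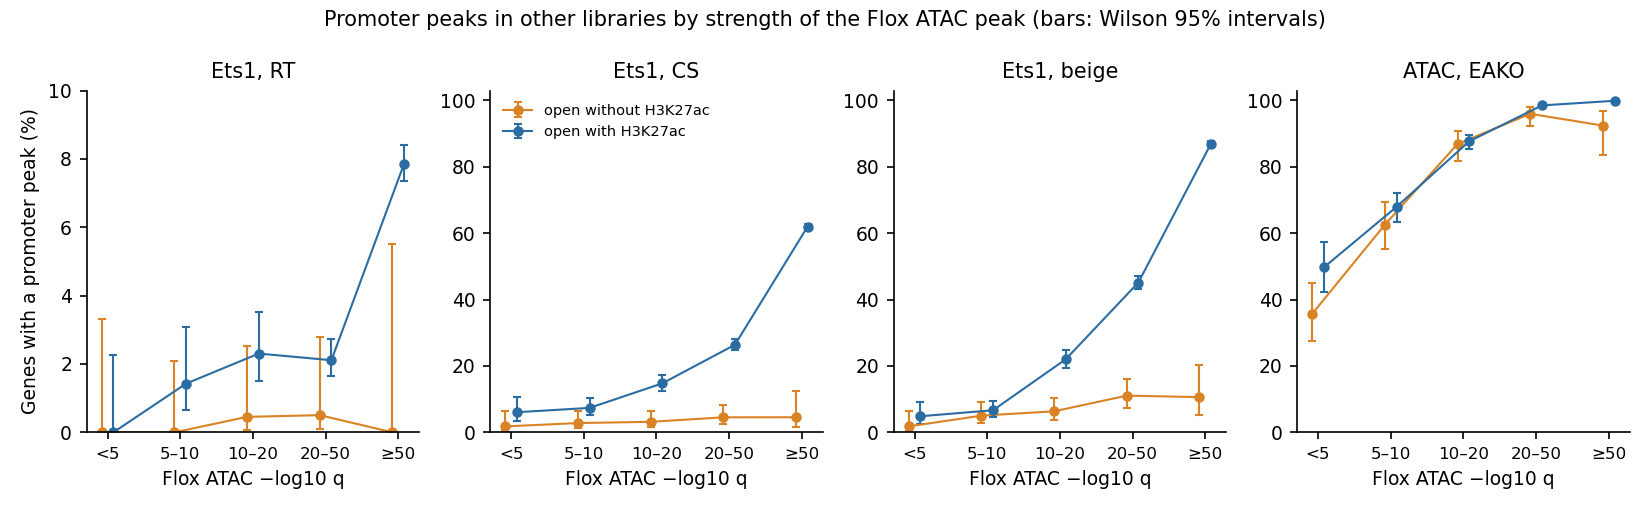
Percent of genes with a promoter peak in Ets1 of RT, CS and beige cells and in ATAC of EAKO (vertical axes; that of RT ends at 10%) by the −log10 q of the Flox ATAC peak (horizontal axis), for open promoters without H3K27ac (orange) and with it (blue). Bars are Wilson 95% intervals. In CS the orange points stayed between 1.79% and 4.55% and the blue points rose from 6.06% to 62.0%, while in EAKO ATAC both rose together.

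The Ets1 peaks that were present were weak. In CS the 26 had a −log10 q between 1.43 and 6.59 with a median of 2.83, against a median of 5.41 for the open genes with H3K27ac. In beige cells the 54 had a median of 3.33, against 14.6, and the highest was 43.7. Of these 54, 8 stood at the same lowest value of 1.46.

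In all, 75 genes (9.65%) had an Ets1 peak in at least 1 library, beside 76.0% of the open genes with H3K27ac and 50.1% of all genes. Of the 777 genes 20 (2.57%) had it in CS alone and 48 (6.18%) in beige cells alone, and those shares were 4.06% and 25.6% of the open genes with H3K27ac. CS and beige cells shared 6 (0.772%), against 45.6% of the open genes with H3K27ac. The 6 were Thra, Rtn2, Tent4b, Reps1, Abhd13 and Gnao1. Rtn2, a reticulon of the endoplasmic reticulum, was the sole gene with a peak in all 3 libraries, at a −log10 q of 11.6 in beige cells, 3.03 at RT and 2.33 after cold. The other RT gene was Tmem8, at 3.13. Reps1 and Tmem8 were named for being in these small counts.

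The highest peaks in CS were at Thra, the thyroid hormone receptor alpha (6.59 in CS, 4.28 in beige cells), Gimap5, a GTPase of lymphocytes (5.78), Rgs14, a regulator of G protein signalling (5.19), and Cbx7, a Polycomb protein (4.81). Cyth4 (3.98) and Abhd13 (3.91 in CS, 6.17 in beige cells) followed. Gimap5, Rgs14, Cbx7 and Cyth4 had none in beige cells. The region of Thra had its summit more than 1 kb from a TSS and overlapped H3K27ac outside the window, and the nearest H3K27ac peak of Abhd13 was 106 bp from its window.

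In beige cells the highest were Zfp36l1 (43.7), whose region overlapped H3K27ac 170 bp outside the window, Gnao1, a G protein alpha subunit (38.6 in beige cells, 3.79 in CS), Dynlt1b, a dynein light chain with near-identical neighbouring copies (26.4), and Pdxp (20.2). Tent4b (16.6 in beige cells, 3.43 in CS) and Polrmt (13.8), whose ETS sequence is shown above, came next. Their nearest H3K27ac peaks were 874 bp from Gnao1, 111149 bp from Dynlt1b, 902 bp from Pdxp, 105 bp from Tent4b and 6256 bp from Polrmt.

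Among the lists, 3 of the 41 neural and body-plan transcription factors had Ets1 in CS (Barhl2 at 2.87, Hand1 at 2.31 and Mnx1 at 1.89) and 3 in beige cells (Tbx2 at 9.65, En1 at 2.33 and Pou4f3 at 1.46). Over all 777 genes the shares were 3.35% in CS and 6.95% in beige cells, and counts of 3 do not set these factors apart. Of the 54 factors open with H3K27ac, 7 had it in CS and 10 in beige cells. No Hox gene, Wnt ligand, germ cell gene or protocadherin of the members had an Ets1 peak in any library, in lists of 5 to 10 members each. With 9.65% over all 777 genes, lists this small cannot show a lower share. Of the 26 Hox genes open with H3K27ac 3 had one in CS and 16 in beige cells, and of the 9 protocadherins open with H3K27ac none had one in CS or beige cells. Barhl2, Hand1, Mnx1, Tbx2 and Pou4f3 were chosen after their values were seen.

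Overlap of the regions themselves with Ets1 peaks gave the same order. A peak overlapped 2 regions at RT, 27 after cold (3.14%) and 72 in beige cells (8.37%), against 3.95%, 34.1% and 55.0% of the other promoter peaks. Of the 42 regions with RE1 near the summit 6 overlapped an Ets1 peak. By gene, 9.65% of the 777 had a promoter peak in at least 1 library, and 6 of 42 is too small a count to be told apart from it. The strongest Ets1 peak at these RE1 regions was at Prmt8 in CS, with a −log10 q of 6.77, and it stayed outside the promoter window. CUT&Tag can tag open DNA without its target, and the share of this in the weak Ets1 peaks was not tested.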

How the data were processed

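Reads were trimmed with trimmomatic, aligned to mm10 with BWA, and peaks were called in each library with MACS2 at a q-value under 0.05 by the authors. SAMtools and deepTools are named in the submitters' processing notes. The methods name uniquely mapped reads for the alignment files that gave the signal tracks, and IgG is listed among the antibodies. Whether peak calling took the same reads or an IgG control is not given in the sources used here. Each deposited list gives a score (10 times the −log10 q), the fold enrichment as a linear ratio, the −log10 p-value and q-value, and the summit. Deposited lists hold no reads. The study gives the number of reads per library elsewhere, which was not used here, and no value of one list was divided by that of another.

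Python 3.11.15 with pandas 2.3.3 and scipy 1.17.1 took an overlap of 1 bp as present, over 93513 TSS of GENCODE M21. Sequences were read from the RefSeq genome of GRCm38. The overlap step, the selection of members and the RE1 search were tested on simulated data. With 1 library per group no test was made. Members and gene lists were chosen with earlier results of these data known. Genes were named by rule: the 10 strongest regions, up to 4 per list, those with Ets1 in all 3 libraries, the 6 highest in CS and in beige cells, the 5 strongest without an EAKO peak, the 5 with most peaks, and 3 on each side of the threshold. Names of predicted genes were passed over except among the strongest, and 1 gene is not reported here. Alternatives changed the windows, the TSS, the lists and the thresholds.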

Additional observations from a re-analysis of the deposited data

How the results depend on the processing

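Of 58 values under other settings 49 stayed within 1.5 times a count or within the interval of a share, and 9 moved. Requiring H3K27ac to be absent up to 5 kb from a TSS left 438 regions and 397 genes, with Ets1 at 0% in RT (0 of 397, which allows up to 0.756%) and 2.02% in CS. Using the Flox H3K27ac list alone gave 1596 regions and 1390 genes, with Ets1 in CS at 5.32%. Ets1 peaks at a q of 0.001 left 1.29% of the genes in CS and 3.60% in beige cells. These settings changed which genes were members or which Ets1 peaks counted, and the cause of the shifts was not tested. A setting chosen after seeing the data, with the summit within 1 kb and no H3K27ac overlap of the region, left 722 regions and 665 genes, with EAKO ATAC at 76.4% and Ets1 at 0.301% (RT), 3.76% (CS) and 7.22% (beige cells). No paired analysis was possible because each group was 1 library without a replicate number. The H3K27ac lists of EC+/+ and EA+/+ were smaller than the others, and absence from a list does not show absence of the mark.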

Other observations

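The regions were spread over the genome. Their genes made up 3.91% to 6.65% of the open genes on the autosomes. On chromosome X they were 36 of 446 open genes (8.07%), and on Y 1 of 4.

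The CpG-rich summits and the others were compared among the 777 genes. For 296 genes the strongest region had a CpG-rich summit, with a median −log10 q of 14.8, and 73.0% had an EAKO peak. The other 481 genes had a median of 12.9, and 79.0% had an EAKO peak. Ets1 was found in CS at 11 of the first and 15 of the second, and in beige cells at 21 and 33. The 425 genes with H3K27ac elsewhere in the gene body had a median of 15.2, with Ets1 at 17 in CS and 28 in beige cells.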
